A study of Mus musculus with 6 samples.

Results

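Translation factors are the proteins that bring ribosomes, initiator tRNA and messenger RNA together and move the ribosome along the message. The genes described here are the mouse initiation factor genes named Eif1 to Eif6 and the elongation factor genes named Eef1 and Eef2, chosen by symbol among the protein-coding genes of the deposited count table, without the eIF2 kinases and the eIF4E-binding proteins. This gave 62 of the 27098 genes in the table. The symbol rule also takes in genes that are not factors themselves, such as 7 genes for enzymes that methylate or phosphorylate elongation factors. In the annotation deposited with the counts, 49 of the 62 carry a term for initiation or elongation factor activity.

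Initiation begins when eIF2 carries the initiator tRNA to the small ribosomal subunit together with eIF1, eIF1A, eIF3 and eIF5, and eIF4F (the cap binder eIF4E, the helicase eIF4A and the scaffold eIF4G) brings in the capped mRNA. eEF1A then delivers aminoacyl-tRNA and eEF2 translocates the ribosome. Growth factor signalling through PI3K, Akt and mTOR acts on this machinery mostly by phosphorylation and by releasing the translation of mRNAs that start with a pyrimidine tract, and the dormant oocyte of the primordial follicle enters growth under the same pathway. Neither phosphorylation nor translation was measured here: all values are mRNA levels.

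Ovaries of mice 3 days after birth were kept for 2 h in DMEM/F12 medium with 1% antibiotics, either alone (control) or with 2% platelet-rich plasma (PRP), which is plasma concentrated for platelets and the factors they release. The series text describes the plasma as human and thrombin-activated, and the labels describe no control with thrombin or with plasma lacking platelets. No strain or genotype is given in the labels, and they do not say whether the 3 control and 3 PRP libraries came from separate cultures or animals, and p-values here therefore speak only of the spread among these 6 libraries, part or all of which may be technical. The series asks whether PRP activates primordial follicles through PI3K/Akt, and the comparison described here asks whether the mRNAs of the translation apparatus differed after 2 h.

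Library totals were 35568000 to 36568367 counts. Ovarian markers were present in every library, with a summed level of 2875 to 5203 CPM (counts scaled per library with TMM factors) for 10 oocyte genes and 1142 to 1247 CPM for 8 granulosa genes, against 29.5 to 38.9 CPM for 5 leukocyte genes. Control 3 stood apart in 7 erythroid genes, at 1532 CPM against 108 to 225 CPM in the other libraries. The counts of passing genes, the set and family medians and the fold changes of the named genes were also computed without it. The median log2 fold change of the tested members was then 0.026 and that of Eif3h 0.14, with an unadjusted p of 0.0547 (edgeR). Summed levels, shares and counts of non-overlapping groups are given with control 3 included.

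As a set the translation factor mRNAs were abundant and steady. The 62 genes held 2.07% to 2.20% of all counts in a library. Their summed level was 21414, 20552 and 21089.7 CPM in controls 1 to 3 and 21789, 20915 and 22110.1 CPM in PRP 1 to 3, so that the groups overlapped. Eef1a1 and Eef2 were the largest parts of this sum, and without them the other 60 genes summed to 12011, 11887 and 12061 CPM in control and 11805, 11947 and 12475 CPM in PRP.

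In all, 59 of the 62 genes had enough counts for a test, and 0 of the 59 passed an adjusted p of 0.05 in edgeR's quasi-likelihood test of the unpaired groups, where 0% of 17475 genes did so. DESeq2 and limma-voom also called 0 of them. At an unadjusted p under 0.05 there was 1 member (Eif3h) in each of the 3 tools, which is 1.69% of the members against 3.19% of all genes in edgeR. Libraries of the same replicate number deviated together, so a second edgeR fit took that number as a block. With that block 0 of the 59 passed in edgeR, against 0.120% of all genes, and 7 had an unadjusted p under 0.05, or 11.9% against 11.2% of all genes. Neither share lies far from its background.

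The intervals were narrow for most members, but like the p-values they speak only of the spread among these libraries. The standard error of the log2 fold change, PRP minus control, had a median of 0.067 over the 59 members without the block and 0.051 with it, against 0.14 and 0.10 over all genes. The unpaired 95% interval lay within ±0.5 on the log2 scale for 54 of the 59 and within ±0.25 for 39. The 5 genes with an interval reaching beyond ±0.5 were Eef1akmt4, Eef2kmt, Eif3j2, Eif4e1b and Eif5a2. The widest was that of Eif4e1b, from -0.96 to 1.07. A plot of fold changes with their intervals gives every tested member.

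**Figure D1:**
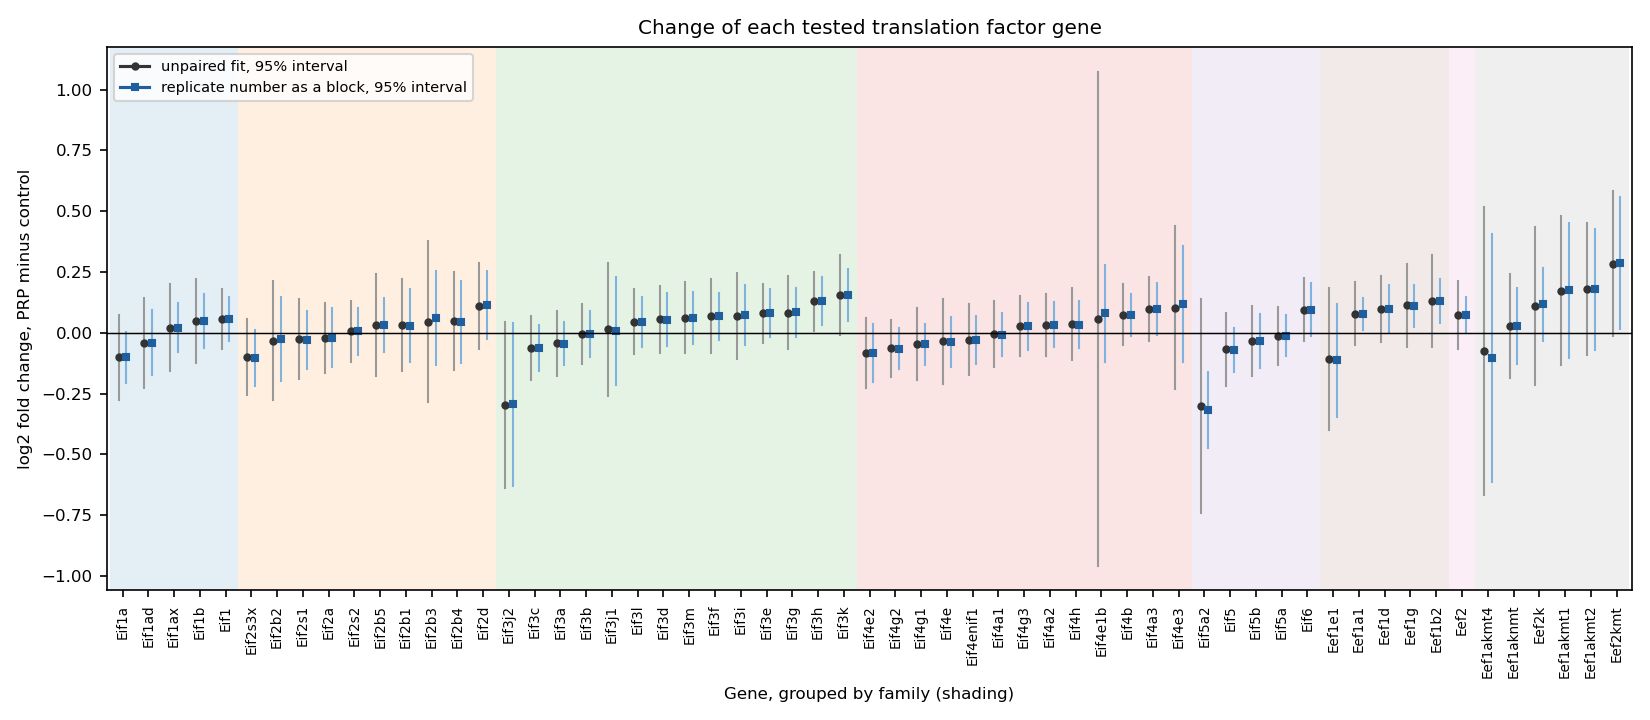
Log2 fold change of PRP over control (y axis) for the 59 tested genes (x axis), ordered within families (shading, left to right eIF1, eIF2 and eIF2B, eIF3, eIF4, eIF5 and eIF6, eEF1, eEF2, modifiers of elongation factors). Circles are the unpaired fit and squares the blocked fit, each with its 95% interval. Most intervals span 0 and lie within ±0.25, the widest belongs to Eif4e1b, and Eif5a2 and Eef2kmt lie at the ends.

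More members lay higher in PRP than lower. The log2 fold change was above 0 in 37 of 59 members (62.7%), against 50.4% of all genes tested, and the median was 0.033, against 0.0013 over all genes. In 22 members (37.3%) PRP lay above control in each of the 3 pairs of same-numbered libraries, against 16.8% of all genes, and in 7 (11.9%) it lay below in each pair, against 16.3%. The count of 22 was the same under DESeq2 size factors, upper-quartile factors and library totals alone. Pair medians were 0.010, 0.029 and 0.067 for replicates 1, 2 and 3, and without replicate 3 the blocked median of the members was 0.0027. Groups did not overlap in 9 members: 7 lay higher in PRP (11.9%, against 4.34% of all genes) and 2 lay lower (3.39%, against 4.87%). The 7 were Eif3e, Eif3h, Eif4a3, Eif6, Eef1akmt1, Eef1akmt2 and Eef2kmt, and the 2 were Eif2s3x and Eif4g2. With library totals alone as the scaling these counts were 8 and 0, against 4.42% and 4.69% of all genes.

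Levels can be compared between genes only per length, and they are given here as CPM per kilobase of the longest protein-coding transcript. On this scale Eef1a1 was highest, at a mean of 3505 over the 6 libraries (range 3259.6 to 3766), followed by Eef2 at 969 (912 to 1045), Eif4a1 at 391 (373 to 419), Eif5a at 342 (331 to 348) and Eef1g at 300.3 (271 to 339). The ranges of Eif4a1 and Eif5a do not touch, whereas those of Eif5a and Eef1g overlap across libraries, although Eif5a was the higher gene within each of the 6 libraries. With the median length of a gene's protein-coding transcripts in place of the longest, Eif4g2 moved from 159 to 1688, above Eef2, and Eef2k from 6.26 to 61.3. Other genes moved too, among them Eif4e from 38.5 to 225 and Eef1d from 64.6 to 223. Eif1 moved from 232 to 332, above Eef1g. The place of a gene therefore depends on the transcript taken. The lowest tested genes were Eef1akmt4 at 2.37, Eef2kmt at 5.11, Eef2k at 6.26 and Eef1e1 at 6.44.

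**Figure D2:**
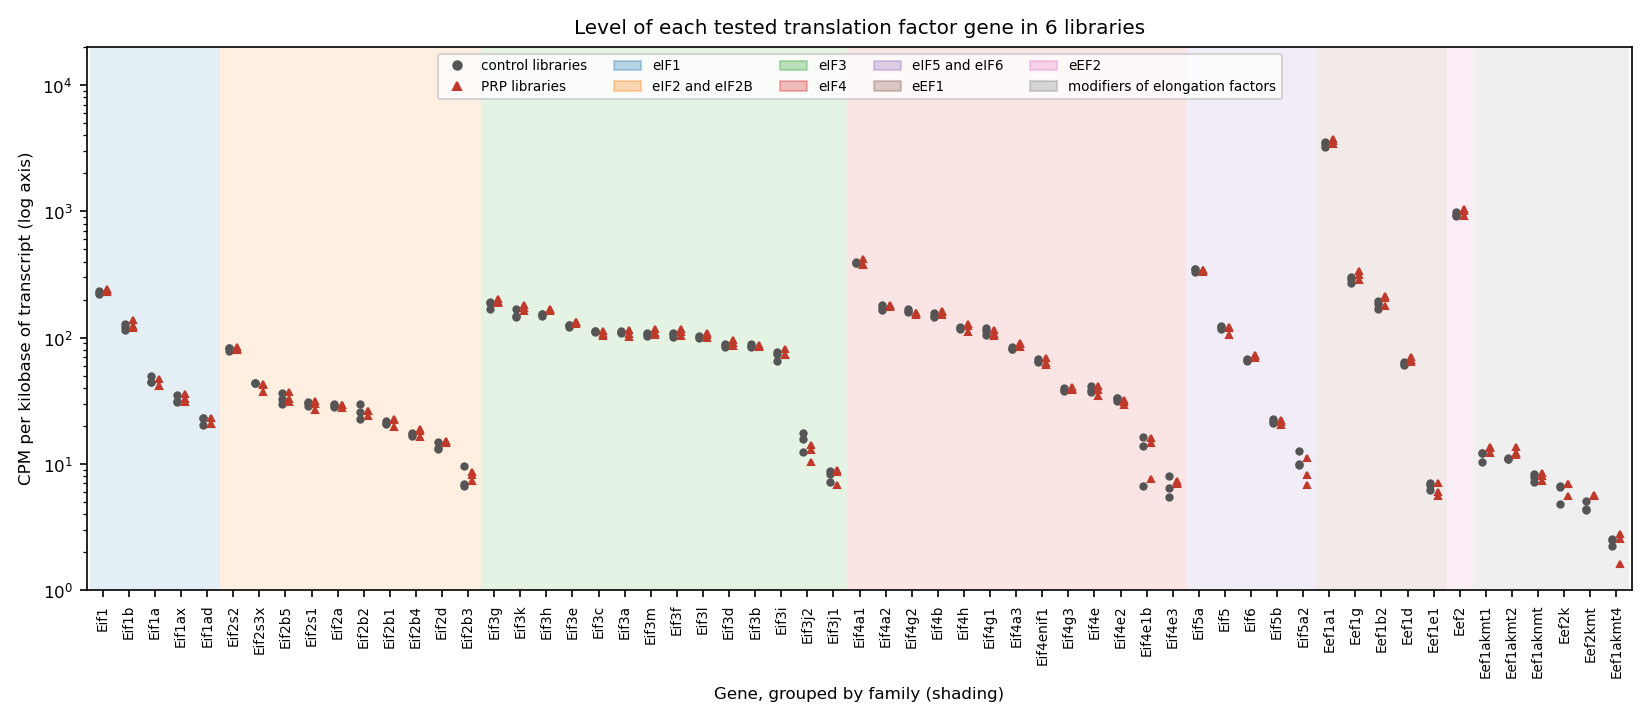
CPM per kilobase of the longest protein-coding transcript (y axis, log scale) for the 59 tested genes (x axis), grouped by family (shading). Circles are the 3 control and triangles the 3 PRP libraries. Eef1a1 and Eef2 stand above all others, the core eIF3 genes form a band, and in nearly all genes the symbols of both groups lie on one another.

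Messages under mTOR control are known for a pyrimidine tract at their first bases, and the windows around annotated starts were therefore searched for runs of C and T. The windows of 8 genes are shown as examples with and without such a run. Genes with a run are more frequent among the 8 than among the members, so they do not stand for the set, whose counts follow. Each is 50 bases of RefSeq sequence on GRCm38.p6, from 25 bases before the annotated start to 24 bases after it, on the strand of the gene, and capitals mark the longest unbroken run of C and T letters where it has 8 or more.
Eef1a1, chr9:78481700-78481749, minus strand: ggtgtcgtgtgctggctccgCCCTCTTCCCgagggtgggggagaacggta
Eef2, chr10:81176606-81176655, plus strand: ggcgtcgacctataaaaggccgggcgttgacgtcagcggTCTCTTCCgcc
Eif3f, chr7:108934390-108934439, plus strand: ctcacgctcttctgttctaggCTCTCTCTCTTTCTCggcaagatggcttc
Eif3k, chr7:28981864-28981913, minus strand: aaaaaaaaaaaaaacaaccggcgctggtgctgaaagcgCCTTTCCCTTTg
Eif2s3x, chrX:94212627-94212676, minus strand: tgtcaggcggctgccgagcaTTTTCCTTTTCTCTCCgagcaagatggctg
Eif2b5, chr16:20498792-20498841, plus strand: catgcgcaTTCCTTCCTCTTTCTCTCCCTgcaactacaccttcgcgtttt
Eif4a1, chr11:69672399-69672448, minus strand: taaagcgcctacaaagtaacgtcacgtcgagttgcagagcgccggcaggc
Eif5a2, chr3:28781252-28781301, plus strand: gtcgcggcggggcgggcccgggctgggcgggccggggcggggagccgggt
Eef1a1, Eef2, Eif3f and Eif3k, with log2 fold changes of 0.079, 0.073, 0.068 and 0.16, hold a run, and so do Eif2s3x and Eif2b5, at -0.10 and 0.031. Start sequences were found for 48 of the 62 members. A run of at least 8 C or T letters, searched on the strand of the gene alone and in every listed start, was present in 14 of the 48 (29.2%) and in 22.3% of 27025 genes. The 13 tested members with a run had a median log2 fold change of 0.062 (9 above 0), the 33 without had 0.014 (18 above 0), and the 13 whose start was not in the table had 0.080 (10 above 0). The last of these medians lay above both others. Of all genes tested, 50.4% had a log2 fold change above 0. The run is a match of letters anywhere in the window, not only at the start, and where transcription begins in these ovaries was not measured.

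Elongation factors. eEF1A, encoded by Eef1a1 (chromosome 9, 78478453 to 78481724 on GRCm38), is the GTPase that carries aminoacyl-tRNA to the ribosome. Eef1a1 measured 6348, 5848 and 6152 CPM in controls 1 to 3 and 6757, 6112 and 6513 CPM in PRP 1 to 3. Both groups were lowest in the library numbered 2 and highest in the one numbered 1, PRP exceeded control within each number, and the groups overlapped. Its log2 fold change was 0.079 ± 0.057 (SE, n = 3 per group) without the block and 0.079 ± 0.031 with it (edgeR blocked adjusted p = 0.345). Of the 50-base words of its transcript, 60.6% recur in transcripts of 21 other annotated genes, so that its count may include or miss reads of those genes.

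The exchange factor subunits that reload eEF1A were likewise lowest in the libraries numbered 2. Eef1b2, the catalytic eEF1B alpha subunit, measured 379, 327 and 359 CPM in controls 1 to 3 and 417, 346 and 402 CPM in PRP 1 to 3. Eef1g, the eEF1B gamma scaffold, measured 541, 506 and 566 CPM in controls 1 to 3 and 584, 530.2 and 631 CPM in PRP 1 to 3, and Eef1d, the delta subunit, 176, 172 and 184 CPM in controls 1 to 3 and 191, 181 and 198 CPM in PRP 1 to 3. In all 3 genes the library numbered 2 was the lowest of its group and PRP was above control within each number, yet PRP 2 did not exceed every control. Log2 fold changes were 0.13 ± 0.084, 0.11 ± 0.075 and 0.10 ± 0.060 (SE) without the block and 0.13 ± 0.043, 0.11 ± 0.041 and 0.10 ± 0.047 with it, and the blocked edgeR adjusted p-values were 0.243, 0.294 and 0.450. For Eef1g 64.3% of 50-base words recur in other transcripts.

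Eef2 (chromosome 10, 81176631 to 81182509), the translocase, measured 3055, 2817 and 2877 CPM in controls 1 to 3 and 3228, 2856 and 3122 CPM in PRP 1 to 3. Again the libraries numbered 2 were low, PRP lay above control in each pair, and the groups overlapped. The log2 fold change was 0.073 ± 0.062 (SE) without and 0.072 ± 0.035 with the block, which is a change of 5.22% with an unpaired 95% interval from -4.46% to 15.9%. Leaving out PRP 1 gave 0.036 and leaving out PRP 2 gave 0.12, the ends of the range over single libraries. Over the same omissions Eef1a1 ran from 0.046 (without PRP 1) to 0.12 (without PRP 2), Eef1b2 from 0.077 to 0.21 (the same libraries) and Eef1g from 0.050 (without PRP 3) to 0.18 (without PRP 2). The 82 cytosolic ribosomal protein genes, whose products make the ribosome itself, had the same order of libraries within each group: 34166, 32390.2 and 33528 CPM in controls 1 to 3 and 37721, 34329 and 36568 CPM in PRP 1 to 3. Oocyte markers, which also vary with the replicate number, summed to 4598, 2875 and 4002 CPM in controls and 5203, 3231 and 4781 CPM in PRP. Of the 10, 5 were lowest in number 2 of both groups and 6 lay higher in PRP in each pair. The 6 stroma markers summed to 2923, 2604 and 3329 CPM in controls and 3453, 2887 and 3413 CPM in PRP, with 6 of 6 lowest in number 2 of both groups and 5 higher in PRP in each pair. The 5 surface epithelium markers, all higher in PRP in each pair, summed to 292, 324 and 304 CPM and 309.5, 379.7 and 356 CPM. The 8 granulosa markers summed to between 1142 and 1247 CPM. Of these 8, 5 were lowest in number 2 of both groups and 1 lay higher in PRP in each pair. Of all genes tested, 16.8% were higher in PRP in each pair. The part of these marker lists in the elongation factor values was not tested. In bulk tissue, fewer cells of a type and less RNA per cell cannot be told apart.

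Eef1e1 is named with this family but encodes a scaffold protein of the multi-tRNA-synthetase complex. It did not follow the others, at 15.8, 17.4 and 17.97 CPM in controls 1 to 3 and 14.1, 18.1 and 15.2 CPM in PRP 1 to 3 and a log2 fold change of -0.11 ± 0.13 (SE), lower in pairs 1 and 3 and higher in pair 2. Eef1a2, the eEF1A paralogue of muscle and neurons, had 1, 0 and 9 counts in controls 1 to 3 and 3, 0 and 6 in PRP 1 to 3, too few for a test. Per length it came to at most 0.0036% of the summed level of both eEF1A genes in any library.

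**Figure D3:**
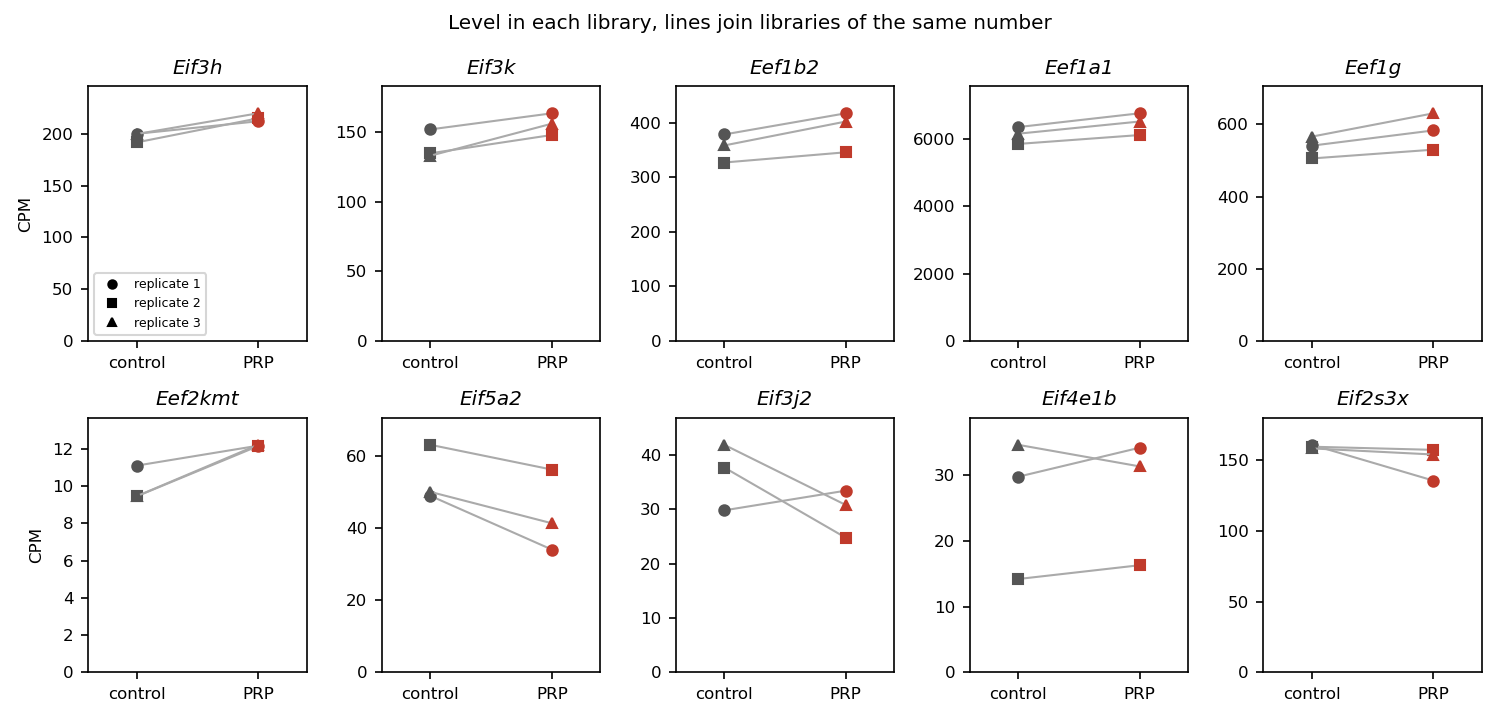
CPM (y axis, from 0) in control and PRP libraries for 10 genes, with lines joining libraries of the same replicate number (circle 1, square 2, triangle 3). The eEF1 genes go up along each line with the libraries numbered 2 lowest, Eif5a2 goes down along each line, and Eif4e1b separates by number more than by treatment.

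Among the enzymes that modify elongation factors, Eef2kmt and the Eef1akmt genes had lower counts than Eef2k and Eef1aknmt. Eef2kmt, a lysine methyltransferase of eEF2, had the highest log2 fold change of all tested members, 0.28 ± 0.13 (SE; 95% interval -0.013 to 0.58). It measured 11.1, 9.45 and 9.45 CPM in controls 1 to 3 and 12.2, 12.1 and 12.2 CPM in PRP 1 to 3, so that the 3 PRP libraries lay close together and above every control. Its unadjusted p was 0.0591 and its adjusted p 1.00 in the unpaired edgeR fit and 0.414 with the block. Of its 50-base words 26.1% recur in other genes, Alg1 first among them, and its span overlaps that of Alg1.

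Eef1akmt1 and Eef1akmt2, lysine methyltransferases of eEF1A, also did not overlap between groups. Eef1akmt1 measured 9.12, 10.7 and 10.7 CPM in controls 1 to 3 and 11.7, 10.8 and 11.99 CPM in PRP 1 to 3, where the highest control and the lowest PRP library were nearly equal. Eef1akmt2 measured 12.2, 12.3 and 12.1 CPM in controls 1 to 3 and 14.99, 13.5 and 13.05 CPM in PRP 1 to 3, and its log2 fold change was 0.18 ± 0.12 (SE). Eef1akmt4 reached 2.35 to 4.08 CPM with the lowest value in PRP 3, and its log2 fold change was -0.075, which turned to 0.13 without that library. Eef1akmt3 had 3, 10 and 7 counts in controls and 2, 1 and 2 in PRP and was not tested. Eef2k, the kinase that inhibits eEF2, measured 42.8, 31.7 and 44.3 CPM in controls 1 to 3 and 45.6, 36.7 and 46.03 CPM in PRP 1 to 3, with a log2 fold change of 0.11 ± 0.14 (SE). It was lowest in both libraries numbered 2. Eef1aknmt, which encodes the methyltransferase METTL13, had values of 32.9, 37.8 and 36.03 CPM in controls 1 to 3 and 33.4, 38.7 and 36.6 CPM in PRP 1 to 3 and a log2 fold change of 0.027 ± 0.10 (SE), so that its pairs differed by only 0.021, 0.035 and 0.024.

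The eIF3 complex, which binds the small subunit and links it to eIF4F, was represented by 14 genes. Its 12 core genes, leaving aside both copies of the loosely bound j subunit, lay between 73.98 (Eif3i) and 189 (Eif3g) CPM per kilobase, a span of 2.55-fold. All 14 were tested, 10 had a log2 fold change above 0 (71.4%, against 50.4% of all genes tested), and the median was 0.058. Pair medians were 0.021, 0.026 and 0.10. In 6 of the 14 (Eif3e, Eif3f, Eif3g, Eif3h, Eif3k and Eif3m) PRP lay above control in every pair, against 16.8% of all genes tested.

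Eif3h (chromosome 15, 51786563 to 51865461), which encodes a subunit of the MPN type, was the member with the smallest unpaired p. It measured 200.02, 192 and 199.8 CPM in controls 1 to 3 and 212, 215 and 219.8 CPM in PRP 1 to 3. Every PRP library lay above every control, and the replicate number took 7.34% of its variance against a median of 53.97% over the tested members. The log2 fold change was 0.13 ± 0.054 (SE; 95% interval 0.0067 to 0.25), with an unadjusted p of 0.0407 and an adjusted p of 1.00 in the unpaired edgeR fit, and an adjusted p of 0.287 with the block. Of its 50-base words 26.2% recur in 2 other annotated genes.

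Eif3k (chromosome 7, 28971372 to 28981890), a peripheral subunit, measured 152, 135 and 133 CPM in controls 1 to 3 and 164, 148 and 156 CPM in PRP 1 to 3. Control 1 exceeded PRP 2, so that the groups overlapped, while PRP lay above control in each pair, by 0.11, 0.13 and 0.23 on the log2 scale. The log2 fold change was 0.16 ± 0.072 without and 0.16 ± 0.050 with the block (SE; blocked edgeR adjusted p = 0.226). Eif3e, the subunit also known as INT6, measured 189, 189 and 184 CPM in controls 1 to 3 and 199, 202 and 193 CPM in PRP 1 to 3 with no overlap between groups and a log2 fold change of 0.080 ± 0.054 (SE).

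The scaffold subunits differed little between groups. Eif3a measured 563, 559 and 576 CPM in controls 1 to 3 and 521, 542 and 584 CPM in PRP 1 to 3 and had a log2 fold change of -0.043 ± 0.059 (SE). Eif3b, the other core scaffold, had means of 254 ± 7.34 CPM in the controls and 253 ± 5.12 CPM in the PRP libraries (SD, n = 3), with a coefficient of variation of 2.25% over the 6 libraries. For the j subunit, Eif3j2 had the lower log2 fold change, -0.30 ± 0.15 (SE), from 29.8, 37.6 and 41.8 CPM in controls 1 to 3 and 33.4, 24.8 and 30.8 CPM in PRP 1 to 3, where PRP was lower in pairs 2 and 3 and higher in pair 1. Leaving out 1 library moved it from -0.42 (without control 1) to -0.18 (without PRP 2). Eif3j1 had 0.014 ± 0.12 (SE), from 44.8, 39.1 and 47.2 CPM in controls 1 to 3 and 36.7, 48.8 and 46.9 CPM in PRP 1 to 3. These genes are near-identical copies, with 91.8% of the 50-base words of Eif3j2 shared, and reads can have been assigned to either.

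The remaining core eIF3 genes filled the space around these. Eif3g, which encodes an RNA-binding subunit, measured 208, 211 and 187 CPM in controls 1 to 3 and 209.5, 223 and 209 CPM in PRP 1 to 3, with pair differences of 0.010, 0.079 and 0.16 on the log2 scale. Eif3f, the other MPN subunit, measured 276, 252 and 267 CPM in controls 1 to 3 and 278, 259 and 296 CPM in PRP 1 to 3, and Eif3m, a subunit with a PCI domain, 137, 131 and 139.5 CPM in controls 1 to 3 and 151, 134 and 141 CPM in PRP 1 to 3. All 3 lay higher in PRP in each pair with groups that overlapped, and their log2 fold changes were 0.082 ± 0.067, 0.068 ± 0.067 and 0.062 ± 0.065 (SE). Eif3d, whose product can itself bind a cap, measured 167, 170.2 and 161 CPM in controls 1 to 3 and 163, 173 and 181 CPM in PRP 1 to 3, Eif3i 73.8, 86.8 and 82.6 CPM in controls 1 to 3 and 82.5, 82.2 and 90.6 CPM in PRP 1 to 3 and Eif3l 201, 197 and 193 CPM in controls 1 to 3 and 204, 193 and 212 CPM in PRP 1 to 3. In these 3 genes 1 pair of the 3 went the other way, pair 1 in Eif3d and pair 2 in Eif3i and Eif3l, and the log2 fold changes were 0.055 ± 0.061, 0.070 ± 0.078 and 0.046 ± 0.059 (SE). Eif3c, a core subunit, was the lowest core gene by fold change, -0.062 ± 0.058 (SE), from 373, 383 and 383 CPM in controls 1 to 3 and 363, 346 and 383 CPM in PRP 1 to 3, with PRP lower in pairs 1 and 2 and level in pair 3.

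The eIF2 genes encode the GTPase that carries initiator tRNA and the eIF2B genes its exchange factor, and Eif2a and Eif2d were counted with them. Of these, 10 of 10 were tested, with 6 log2 fold changes above 0 (60.0%, against 50.4% of all genes tested). The median was 0.018 and ran from -0.019 to 0.058 when single libraries were left out. Per length the 3 eIF2 subunit genes averaged 51.1 CPM per kilobase and the 5 eIF2B genes 21.2, a ratio of 2.42. With median transcript lengths the means were 61.4 and 49.3 and the ratio 1.245, so that it depends on the transcript taken. Eif2s3x (chromosome X, 94188709 to 94212651), the X-linked gamma subunit gene, measured 161, 159 and 158 CPM in controls 1 to 3 and 135, 157 and 154 CPM in PRP 1 to 3. PRP 1 was the lowest of the 6 libraries, and the other PRP libraries lay just below the lowest control. Its log2 fold change was -0.10 ± 0.069 (SE) and did not pass. Eif2s1, whose product is the alpha subunit phosphorylated under stress, measured 103, 97.8 and 105 CPM in controls 1 to 3 and 91.7, 101 and 108 CPM in PRP 1 to 3 with a log2 fold change of -0.027 ± 0.073 (SE). Eif2b5, the catalytic subunit of eIF2B, measured 76.6, 93.2 and 82.95 CPM in controls 1 to 3 and 79.1, 95.2 and 83.9 CPM in PRP 1 to 3: it differed by number, with the libraries numbered 2 highest, and by only 0.031 between groups.

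The other subunit genes had log2 fold changes within ±0.05. Eif2s2, the beta subunit, measured 209, 201 and 210.1 CPM in controls 1 to 3 and 204, 205 and 213 CPM in PRP 1 to 3, with a log2 fold change of 0.0055 ± 0.055 (SE) and a coefficient of variation of 2.19% over the 6 libraries. The regulatory eIF2B subunit genes Eif2b1 and Eif2b2 had log2 fold changes of 0.031 ± 0.084 and -0.032 ± 0.11, and Eif2b3 and Eif2b4 0.045 ± 0.15 and 0.047 ± 0.089 (SE). In none of these 4 did the 3 pairs share a direction. Eif2d, whose product can deliver tRNA without eIF2 and takes part in recycling, measured 43.8, 49.3 and 44.3 CPM in controls 1 to 3 and 49.3, 50.8 and 48.4 CPM in PRP 1 to 3. It lay higher in PRP in each pair, by 0.17, 0.042 and 0.13 on the log2 scale, with a log2 fold change of 0.11 ± 0.079 (SE; blocked edgeR adjusted p = 0.562). For Eif2a, an alternative initiator tRNA factor that is not a subunit of eIF2, the log2 fold change was -0.021 ± 0.064 (SE).

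The eIF1 genes guard start codon choice. Eif1 measured 310.2, 292 and 301 CPM in controls 1 to 3 and 315, 304 and 319.9 CPM in PRP 1 to 3 with a log2 fold change of 0.056 ± 0.055 (SE). The eIF1A genes lay on different sides of 0, and neither passed. Eif1a measured 128, 127 and 143 CPM in controls 1 to 3 and 118, 119 and 135 CPM in PRP 1 to 3, lower in PRP in each pair, with -0.10 ± 0.077 without and -0.10 ± 0.050 with the block (SE). For Eif1ax, its X-linked paralogue, the log2 fold change was 0.021 ± 0.079 (SE). Eif1ax held 40.9, 44.3 and 38.5% in controls 1 to 3 and 42.7, 46.2 and 40.96% in PRP 1 to 3 of the summed level per length of both. With median transcript lengths its mean share was 32.4% in control and 34.3% in PRP. Eif1b, the paralogue of Eif1, measured 126, 133 and 118 CPM in controls 1 to 3 and 122, 142 and 127 CPM in PRP 1 to 3, with 0.049 ± 0.077 (SE), and Eif1ad had -0.042 ± 0.082 (SE). Neither had 1 direction in all 3 pairs.

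The eIF4F genes hold the cap-binding complex, through which mTOR acts by way of the eIF4E-binding proteins. In the deposited annotation 4 of the 62 members carry the PI3K-Akt pathway term. Eif4e, the cap-binding protein, measured 186, 206 and 192 CPM in controls 1 to 3 and 172, 207 and 191 CPM in PRP 1 to 3, highest in both libraries numbered 2, with a log2 fold change of -0.035 ± 0.077 (SE; 95% interval -0.21 to 0.14). Eif4a1, the main helicase, measured 686, 696 and 705 CPM in controls 1 to 3 and 672, 662 and 743 CPM in PRP 1 to 3, with -0.0068 ± 0.060 (SE; its sign turned with upper-quartile factors), and 65.3% of its 50-base words recur in other genes. Eif4g1, the scaffold, measured 588, 635 and 666 CPM in controls 1 to 3 and 584, 600.0 and 643 CPM in PRP 1 to 3, lower in PRP in each pair, with -0.048 ± 0.066 (SE). For these 3 core genes the unpaired intervals stayed within ±0.25.

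Eif4g2 (also DAP5), a scaffold without the eIF4E-binding site, was the lower of the non-overlapping eIF4 genes, at 1337, 1271 and 1288 CPM in controls 1 to 3 and 1202, 1262 and 1261 CPM in PRP 1 to 3. Control 2 and PRP 2 differed by less than the spread among controls. Its log2 fold change was -0.065 ± 0.052 (SE; blocked edgeR adjusted p = 0.583), and with library totals alone no member's groups were separate and lower. Eif4a3, a helicase of the exon junction complex and not of eIF4F, measured 124, 126 and 122 CPM in controls 1 to 3 and 127, 137 and 135 CPM in PRP 1 to 3, with the lowest PRP library just above the highest control and a log2 fold change of 0.10 ± 0.059 (SE). The log2 fold changes of Eif4a2 and Eif4g3 were 0.033 ± 0.057 and 0.027 ± 0.055 (SE). Eif4a3l1, a copy of Eif4a3, had 0 counts in 5 libraries and 1 in PRP 3 and was not tested.

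Eif4b and Eif4h encode cofactors of the eIF4A helicase, and eIF4B is a substrate of the S6 kinase. Eif4b measured 601, 565 and 575 CPM in controls 1 to 3 and 616, 587 and 629.8 CPM in PRP 1 to 3, higher in PRP in each pair by 0.038, 0.055 and 0.13 on the log2 scale, with groups that overlapped and a log2 fold change of 0.074 ± 0.055 (SE; blocked edgeR adjusted p = 0.526). Eif4h measured 324, 317 and 329 CPM in controls 1 to 3 and 338, 305 and 351 CPM in PRP 1 to 3, with 0.036 ± 0.065 (SE) and a lower PRP value in pair 2. Eif4enif1, which encodes the eIF4E transporter 4E-T of oocyte RNA granules, measured 240.2, 251 and 236 CPM in controls 1 to 3 and 226, 255 and 232 CPM in PRP 1 to 3, with -0.028 ± 0.064 (SE).

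The cap-binding paralogues included the tested member that differed most between libraries. Eif4e1b (chromosome 13, 54783994 to 54788459) encodes an eIF4E relative of oocytes. It measured 29.8, 14.2 and 34.6 CPM in controls 1 to 3 and 34.2, 16.3 and 31.4 CPM in PRP 1 to 3, so that both libraries numbered 2 were low and the other 4 high. The replicate number took 96.95% of its variance, against a median of 53.97% over the tested members, and the treatment 0.658%. The share by number was larger still in Eif2b5 (97.8%) and Eef1aknmt (97.4%). The log2 fold change was 0.058 ± 0.41 without and 0.081 ± 0.094 with the block (SE), positive in pairs 1 and 2 and negative in pair 3, and it turned to -0.24 without control 2. The summed oocyte markers were also lowest in both libraries numbered 2, with 5 of the 10 genes (Gdf9, Nlrp5, Padi6, Zp2 and Zp3) lowest there in both groups. The other 5 oocyte genes were not, Dazl and Figla being highest there in both groups. The pattern was not particular to oocyte genes. In both groups 6 of 6 stroma, 5 of 8 granulosa and 3 of 5 leukocyte markers were lowest there. The same held for 2 of 4 endothelium, 1 of 5 surface epithelium and 0 of 7 erythroid markers. The part of these marker lists in the result was not tested.

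Eif4e1b made up 15.4, 7.88 and 16.9% in controls 1 to 3 and 18.5, 8.67 and 16.1% in PRP 1 to 3 of the summed level per length of the 4 eIF4E genes. Eif4e2 (4EHP), a cap binder that represses translation, measured 115, 109 and 115 CPM in controls 1 to 3 and 101, 112 and 107 CPM in PRP 1 to 3 with a log2 fold change of -0.083 ± 0.064 (SE), and Eif4e3 16.1, 13.7 and 20.2 CPM in controls 1 to 3 and 17.7, 17.3 and 18.5 CPM in PRP 1 to 3 with 0.10 ± 0.15 (SE). Mean shares of Eif4e1b, Eif4e2 and Eif4e3 in control were 13.4%, 36.1% and 7.27%, and 10.4%, 19.96% and 1.96% with median transcript lengths. Across 10 such paralogue shares, the exact two-sided permutation test of PRP against control gave p from 0.30 to 0.90 (adjusted 0.80 to 0.90), where 3 libraries against 3 allow no p below 0.10. This test takes no account of the replicate numbers. Within each number the share of Eif1ax was higher in PRP, and those of Eif5a2 and Eif4e2 were lower. The remaining shares did not keep a single direction. The plot of paralogue shares gives 9 of them by library.

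**Figure D4:**
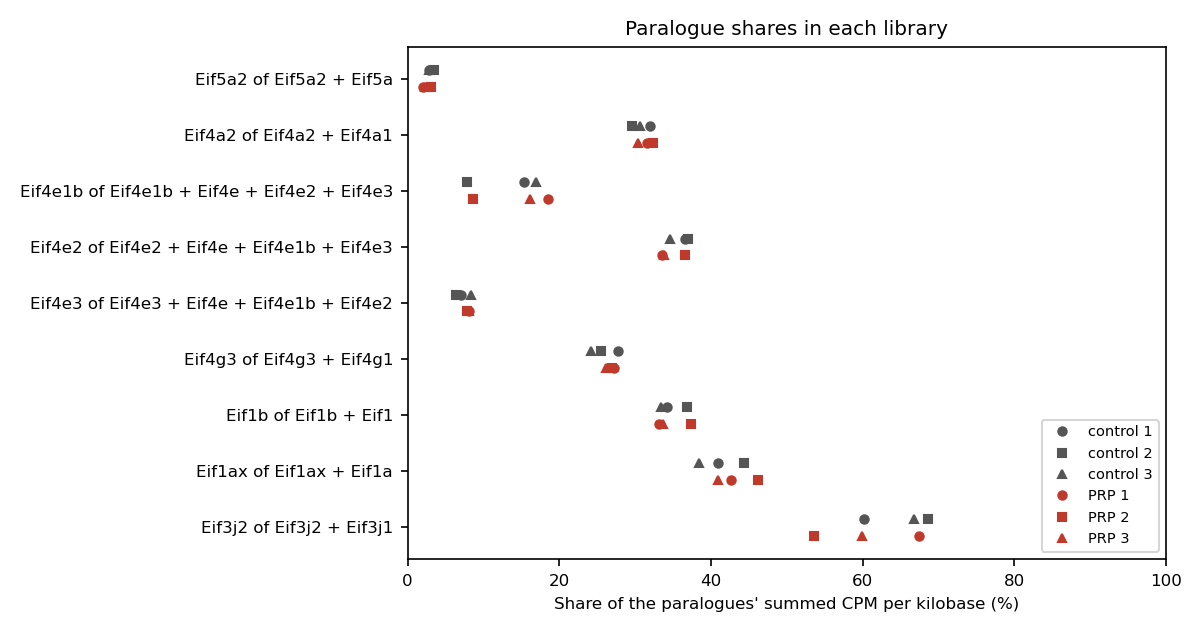
Share of a gene in the summed CPM per kilobase of the paralogues named beside it (x axis, percent) for 9 comparisons (y axis), with control libraries above PRP libraries and symbols for replicate number. Shares of Eif4e1b fall to 7.88% and 8.67% in the libraries numbered 2, against 15.4% to 18.5% in the others, while the groups overlap in every row.

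Eif5a2 (chromosome 3, 28781032 to 28798846) stood at the lower end of the fold changes. eIF5A, the hypusine-bearing factor that helps ribosomes through difficult peptide bonds, is encoded mainly by Eif5a, and Eif5a2 is its tissue-restricted paralogue. Eif5a2 measured 48.99, 63.1 and 50.1 CPM in controls 1 to 3 and 34.1, 56.3 and 41.4 CPM in PRP 1 to 3. The libraries numbered 2 were the highest of their groups, PRP lay below control in each pair (by -0.52, -0.17 and -0.27 on the log2 scale), and PRP 2 exceeded controls 1 and 3, so that the groups overlapped. Its log2 fold change was -0.30 ± 0.19 (SE; 95% interval -0.74 to 0.14) in the unpaired fit and -0.32 ± 0.074 (-0.48 to -0.16) with the block. Without PRP 1 the unpaired value was -0.15 and without PRP 2 it was -0.52, the ends of its range over single libraries. The blocked interval thus lay below 0, but the gene did not pass over all genes (edgeR blocked adjusted p = 0.125, the smallest among the members).

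Eif5a had the lowest coefficient of variation of the tested members, 2.13%, with 479.6, 501 and 498 CPM in controls 1 to 3 and 476, 494 and 496 CPM in PRP 1 to 3, and a log2 fold change of -0.012 ± 0.053 (SE). Eif5a2 held 2.84, 3.48 and 2.79% in controls 1 to 3 and 2.01, 3.15 and 2.33% in PRP 1 to 3 of the level per length of both genes. Among the late-initiation factors, Eif5, the GTPase activator of eIF2, measured 477, 491 and 503 CPM in controls 1 to 3 and 427, 490.1 and 486 CPM in PRP 1 to 3 with PRP 1 lowest and a log2 fold change of -0.069 ± 0.067 (SE). Eif5b, the GTPase of subunit joining, had -0.033 ± 0.064 (SE). Eif6, which keeps the large subunit from joining too early, measured 99.1, 97.6 and 102 CPM in controls 1 to 3 and 109, 104 and 107 CPM in PRP 1 to 3, each PRP library above each control, with a log2 fold change of 0.095 ± 0.058 (SE) that did not pass (blocked edgeR adjusted p = 0.521).

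Partner genes that act on these factors were listed from general knowledge. All 46 were tested, 0 passed with or without the block in edgeR, 2 had an unadjusted p under 0.05 without it (4.35%, against 3.19% of all genes) and 7 with it (15.2%, against 11.2%), and the median log2 fold change was -0.014 (22 above 0, or 47.8% against 50.4%). The lowest fold change was that of Eif2ak2 (PKR), an eIF2 kinase that is itself interferon-inducible, at 61.00, 46.9 and 55.6 CPM in controls 1 to 3 and 43.7, 42.7 and 44.4 CPM in PRP 1 to 3. Each PRP library lay below each control, with a log2 fold change of -0.32 ± 0.10 (SE; unadjusted p = 0.0104, blocked adjusted p = 0.125, edgeR). Rps6kb1, the mTOR-activated S6 kinase, measured 81.9, 86.5 and 82.4 CPM in controls 1 to 3 and 67.6, 77.5 and 76.97 CPM in PRP 1 to 3, also without overlap, with -0.18 ± 0.072 (SE; unadjusted p = 0.0376, edgeR). These were the 2 of 46 partners with separate groups and lower values, against 4.87% of all genes. Another 2 of 46, Dph7 and Mcts2, had separate groups and higher values, against 4.34% of all genes. Rptor, the mTORC1 scaffold, had -0.15 ± 0.092, Ppp1r15b, a phosphatase subunit for eIF2, -0.14 ± 0.085, and Ddx3x and Dhx29, helicases of initiation, -0.11 ± 0.055 and -0.18 ± 0.079 (SE). Dph3 and Dph7, which help make diphthamide on eEF2, had 0.16 ± 0.088 and 0.24 ± 0.14, and for the poly(A)-binding protein gene Pabpc1 and its interactor Paip1 the values were -0.040 ± 0.071 and -0.053 ± 0.056 (SE).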

How the data were processed

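Messenger RNA of 3 control and 3 PRP ovary libraries was sequenced. The values are raw counts by gene symbol, deposited by the authors as 1 table. The build was GRCm38/mm10, per the submitters' processing notes. The aligner, counter, gene models and strand setting were not given in the sources used here, so that reads of pseudogene copies, overlapping genes and antisense partners may have been assigned to either gene. Of the 62 members, 15 share over 20% of their 50-base words with transcripts of other genes and 17 have a span that overlaps another listed gene. Columns were assigned by sample title, and the column for PRP 3, whose letters stand in another order, was assigned to PRP 3, the one title left without a column.

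Counts were tested in edgeR 4.0.16 (R 4.3.3) with its quasi-likelihood F test, two-sided, with robust dispersion, after filterByExpr and TMM scaling (17475 genes, Benjamini-Hochberg over all of them at 0.05). A standard error is the log2 fold change over the root of its F. CPM use TMM library sizes. Alternatives were DESeq2 1.42.0, limma 3.58.1 (voom), other scaling factors and filters, no robust estimation, and leaving out each library. The procedure was tested on simulated data. Across genes, deviations from the group mean had a correlation of 0.24, 0.40 and 0.33 for control and PRP libraries 1, 2 and 3, and of at most -0.022 for libraries of unlike number, so same-numbered libraries were treated as pairs, on these correlations alone, since no label says it. Deviations from a group mean sum to 0 within the group, so the values for unlike numbers are not separate evidence. The blocked fits and the counts over pairs rest on this pairing. Pairs of libraries differed beyond counting noise (chi-square per degree of freedom 8.91 to 32.0). Coordinates and start sequences are from RefSeq (GRCm38.p6) and transcript lengths from GENCODE M21, both by Entrez identifier or symbol. All 62 members had a span and a length.

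The members, the partner and marker lists and the rule for named genes were chosen with earlier results of these data known. The rule named members that passed, the 12 with the smallest p in either fit, the 5 highest and 5 lowest in CPM, both ends of the fold change, a fixed set and every untested member, and the 2 partners per list with the smallest p. The other members were added to complete their families. Eif2s3y and Eif4a3l2 were not analysed here. With 3 libraries a group, an exact permutation test cannot give p below 0.10.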

Additional observations from a re-analysis of the deposited data

How the results depend on the processing

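No member passed an adjusted p of 0.05 under any alternative, and neither did any of the 46 named genes, partners included. The number of all genes that passed was 0 without the replicate block and 21 with it, and with the block 3, 1 and 19 when replicates 1, 2 and 3 were left out. The number of members with an unadjusted p under 0.05 was 1 in the unpaired fit, 2 without a filter on low counts, 7 with the block and 10 in limma-voom with the block. It was 0 without control 2, control 3 or PRP 3, 3 without control 1 and 4 without PRP 2, and with the block 9, 7 and 2 without replicates 1, 2 and 3. Of all genes, 3.19% had such a p in the unpaired edgeR fit and 11.2% with the block, against 1.69% and 11.9% of the members. For the other settings the share over all genes is not given here, so their counts do not set the members apart from other genes. When single libraries or, with the block, pairs were left out, the median log2 fold change of the members ran over 0.016 to 0.044 and blocked 0.0027 to 0.034. That of the eEF1 genes ran over 0.068 to 0.13 and blocked 0.088 to 0.11. Eef2 alone ran over 0.036 to 0.12 and blocked 0.050 to 0.099. The median of the eIF3 genes ran over 0.021 to 0.073 and blocked 0.022 to 0.075. That of the modifiers of elongation factors ran over 0.10 to 0.20 and blocked 0.10 to 0.17. The eIF4 median turned sign, over -0.010 to 0.035 and blocked -0.012 to 0.017. The medians of the eIF1, eIF2 with eIF2B, and eIF5 with eIF6 genes also turned sign, over -0.039 to 0.051 (blocked 0.0014 to 0.036), -0.019 to 0.058 (blocked -0.024 to 0.026) and -0.068 to 0.0071 (blocked -0.081 to -0.011). Signs turned for 13 of the 46 named genes, none of them over 0.11 in size in the unpaired fit, with these ranges: Eef1akmt4 -0.23 to 0.13 and blocked -0.32 to 0.16 (without pair 3, PRP 3), Eef2k -0.026 to 0.21 (without control 2), Eif2b5 -0.047 to 0.11 (without control 1, PRP 2), Eif2s1 -0.082 to 0.033 and blocked -0.065 to 0.039 (without pair 1, PRP 1), Eif4a1 -0.060 to 0.025 and blocked -0.051 to 0.024 (without pair 2, control 3, PRP 1, PRP 2), Eif4a2 -0.0019 to 0.061 and blocked -0.0026 to 0.077 (without pair 2, control 2), Eif4e -0.10 to 0.032 (without control 2, PRP 1), Eif4e1b -0.24 to 0.32 (without control 2, PRP 1, PRP 3), Eif4e3 -0.019 to 0.26 (without control 2), Eif4g3 blocked -0.012 to 0.067 (without pair 3), Eif5a -0.033 to 0.0075 (without control 2, PRP 1), Eif5b -0.068 to 0.0071 and blocked -0.10 to 0.0083 (without pair 1, PRP 1), Pabpc1 -0.10 to 0.016 (without control 3). The log2 fold change of Eif4a1 was 0.0017 with upper-quartile factors. The cause was not tested. Counting members whose PRP value lay above control in both remaining pairs, an alternative chosen after seeing the data, gave 30 without replicate 1 (50.8%, against 27.9% of all genes), 27 without replicate 2 (45.8%, against 28.4%) and 25 without replicate 3 (42.4%, against 28.3%). The block changed no call of a member. Eef1a2, Eef1akmt3 and Eif4a3l1 had too few counts and were left untested.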
